A study of Homo sapiens with 6 samples.

Results

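The genes of MHC class I antigen presentation were followed on 6 Agilent Whole Human Genome arrays of the human ovarian cancer cell lines SKOV3 and A2780s. The members are 9 genes, HLA-B, HLA-C, HLA-E, HLA-F, HLA-G, B2M, TAP1, TAP2 and TAPBP, and every non-control probe that the scanner files give one of these names was taken, 25 of the 41000 probes on the array. The samples were stable clones, all grown in RPMI medium. SKOV3 cells were infected with pLKO.1-puro lentivirus and selected with puromycin: the clones sh-S1 and sh-S2 carry shRNA against Hic-5, and the Ctrl clone, labelled mock-transfected, carries a scramble sequence. A2780s cells were transfected with a pCMV6 vector and selected with neomycin: the pCMV-Hic-5 clone carries the tagged Hic-5 cDNA, and its control clone, labelled mock-transfected, carries the empty vector. Each array compared the RNA of 1 modified clone with the RNA of its Ctrl, and each clone had 2 arrays with the dyes Cy3 and Cy5 exchanged. The arrays of a clone therefore count as 1 replicate, which gives n = 2 clones in SKOV3, both against the same Ctrl RNA, and n = 1 in A2780s. Each group is a single clone, and nothing says that its RNA came from more than 1 culture. The p-values therefore speak only for these 2 clones. Their variance is not that of the 2 clones alone, since the fit draws it partly from all tested probes. The SKOV3 arrays share a slide and a scan and the A2780s arrays another, so the cell lines and their slides cannot be told apart.

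MHC class I molecules present short peptides from inside the cell to cytotoxic T cells. A heavy chain encoded by an HLA gene pairs with the light chain beta-2-microglobulin (B2M). The peptides are cut by the proteasome, pumped into the endoplasmic reticulum by the transporter of TAP1 and TAP2, and loaded onto the heavy chain with the help of tapasin (TAPBP). HLA-B and HLA-C are classical heavy chains, while HLA-E, HLA-F and HLA-G are nonclassical ones that also engage receptors of natural killer cells. Transcription of these genes is known to respond to interferon, through IRF1 and the coactivator NLRC5.

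Heavy chain genes are close copies of one another, so the sequences of their probes were compared. Probes were set only against each other and not against the RNA of other genes. A low count of like pairs therefore does not show that a probe reads a single gene. The probes are 60 bases long, and their positions are those of the scanner files on hg19. In the HLA-B probe A_23_P125107 (chr6:31323100-31323159, minus strand) and the HLA-F probe A_23_P145264 (chr6:29693013-29693072, plus strand), the longest run they share is 20 bases and stands in capitals. Their best-matching stretches were alike in 29 of 30 bases, so the likeness extends beyond the capitals.
HLA-B A_23_P125107: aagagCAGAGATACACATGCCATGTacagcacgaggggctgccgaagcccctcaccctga
HLA-F A_23_P145264: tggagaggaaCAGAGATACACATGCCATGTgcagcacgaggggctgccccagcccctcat
Of the 100 pairs of HLA probes assigned to different genes, 4 shared a run of 15 bases or more. In their best-matching stretch of 30 bases, 5 pairs were alike in 25 or more. The HLA-G probe A_24_P311926 (chr6:29798694-29798753) and the HLA-C probe A_23_P113716, which the files leave unmapped, were alike in 26 of 30 bases of their best-matching stretch, shown with the equal bases in capitals because these probes gave like values below.
HLA-G A_24_P311926: GGATGTCTCCgTCTCTGTCTCAAaTTTgtG
HLA-C A_23_P113716: GGATGTCTCCaTCTCTGTCTCAAcTTTacG
The third HLA-B probe, A_24_P161933, is shown whole because the files place it at chr6:31238856-31238915. That is within the span of the mapped HLA-C probes (chr6:31236633-31239408) and away from the other HLA-B probes (chr6:31322916-31323159), so by position it may not read HLA-B.
HLA-B A_24_P161933: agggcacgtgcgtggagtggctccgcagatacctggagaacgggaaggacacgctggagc
For HLA-E, whose probe A_24_P326082 lies at chr6:30459360-30459419, and for B2M, whose probe A_23_P37441 lies at chr15:45007773-45007832, the probes with the largest changes are these.
HLA-E A_24_P326082: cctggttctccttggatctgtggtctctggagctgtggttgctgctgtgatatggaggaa
B2M A_23_P37441: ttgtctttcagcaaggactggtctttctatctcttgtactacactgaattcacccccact
Whether RNA of one heavy chain gene reached the probe of another was not tested, and heavy chain values are given by probe.

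TGFB1I1, the gene of Hic-5, was read first as a check of the labels. Its log2 ratio to the Ctrl was -0.16 and 0.12 on the arrays of sh-S1 and -0.11 and 0.28 on those of sh-S2, with a mean over the clones of 0.03 ± 0.07 (SD; adjusted p of 0.855 by limma). The target was thus not lower where the labels say it was knocked down, and every direction given for SKOV3 rests on these labels. The check rests on 1 probe. The paper reports Hic-5 as inhibited in the stable knockdown clones, checked by quantitative RT-PCR and Western blot, which are not analysed here. The log2 level of TGFB1I1 was 7.78 to 8.55 in the SKOV3 Ctrl, 8.23 to 8.67 in sh-S1 and 8.05 to 8.06 in sh-S2, which overlap, against 11.84 to 13.72 in the A2780s Ctrl. For the protein the paper reports the reverse order, strong in SKOV3 and rather low in A2780s. The cause of this difference was not tested. In A2780s pCMV-Hic-5 the TGFB1I1 ratio was 4.05 and 2.60, a mean of 10-fold higher than in the Ctrl. The median signal on the SKOV3 arrays lay between 9.52 and 25.5 in Cy5 against 373 to 530 in Cy3, so Cy5 was the dim channel there. Of the 10 markers of ovarian carcinoma cells, 8 were tested in SKOV3, each read by its brightest tested probe. By the thresholds given below 6 of them fell together with the class I genes, as did 4.16% of all tested probes. The log2 ratio was -3.58 for PAX8, -3.52 for KRT18, -2.55 for KRT19, -2.28 for ERBB2, -2.20 for KRT7 and -2.14 for KRT8. WT1 at -0.02 and MUC16 at 0.06 were not called. The KRT8 probes ran from -2.14 to -0.38, and 2 of the 3 tested were called. In A2780s KRT18 was the only one of this list's 6 measured genes called by the 1.5-fold rule used there, higher by 0.59. EPCAM and CDH1 did not pass the filter on signal in SKOV3. The summed level of all probes of these 10 markers ranged from 71800 to 103000 in the SKOV3 Ctrl, from 13200 to 17500 in sh-S1, from 11800 to 17800 in sh-S2 and from 5070 to 6200 in the A2780s Ctrl, and its part in the class I result was not tested. Of the 12 leukocyte markers, 7 were tested in SKOV3 and 0 changed by limma at the thresholds used, with PTPRC and CD3D among the 5 that did not pass the filter, and the summed level was 4230 to 5120 in the SKOV3 Ctrl and 4310 to 4730 in both shRNA clones. With 7 genes a count of 0 cannot be told from the shares over all tested probes, given below. In the fibroblast and endothelial list, COL3A1 rose by a log2 ratio of 3.65 at its brightest probe, with 1.12 to 3.65 over its 3 tested probes. No other of the 6 tested genes passed the thresholds. The summed level of the list was 3110 to 4210 in the Ctrl, 13700 to 20200 in sh-S1 and 8480 to 13500 in sh-S2. In A2780s PDGFRA of this list was lower by the 1.5-fold rule, at -1.08 and -0.57. In RNA of a whole culture, fewer cells with a transcript and less of it per cell cannot be told apart.

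Most MHC class I genes fell in SKOV3 in the RNAs that the labels call sh-S1 and sh-S2, and TAP2 and TAPBP were not called. Of the 25 probes, 21 had enough signal to be tested, which means well above background in every channel of at least 1 of the SKOV3 RNAs, and 16 of these 21 were lower by limma (adjusted p of at most 0.05 over all probes tested and at least 2-fold). Over all 24955 probes tested, 4.16% were lower by the same rule. The 16 probes belong to 7 of the 9 genes. No member probe was higher at the thresholds of limma, where 2.97% of all probes were, and at an unadjusted p of at most 0.05 the count of higher member probes was 0 as well. The median log2 ratio was -1.57 over the 21 probes and 0 over all probes tested. On all 4 arrays the ratio was below 0 in 18 of the 21 probes, against 19.5% of all tested probes.

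**Figure D1:**
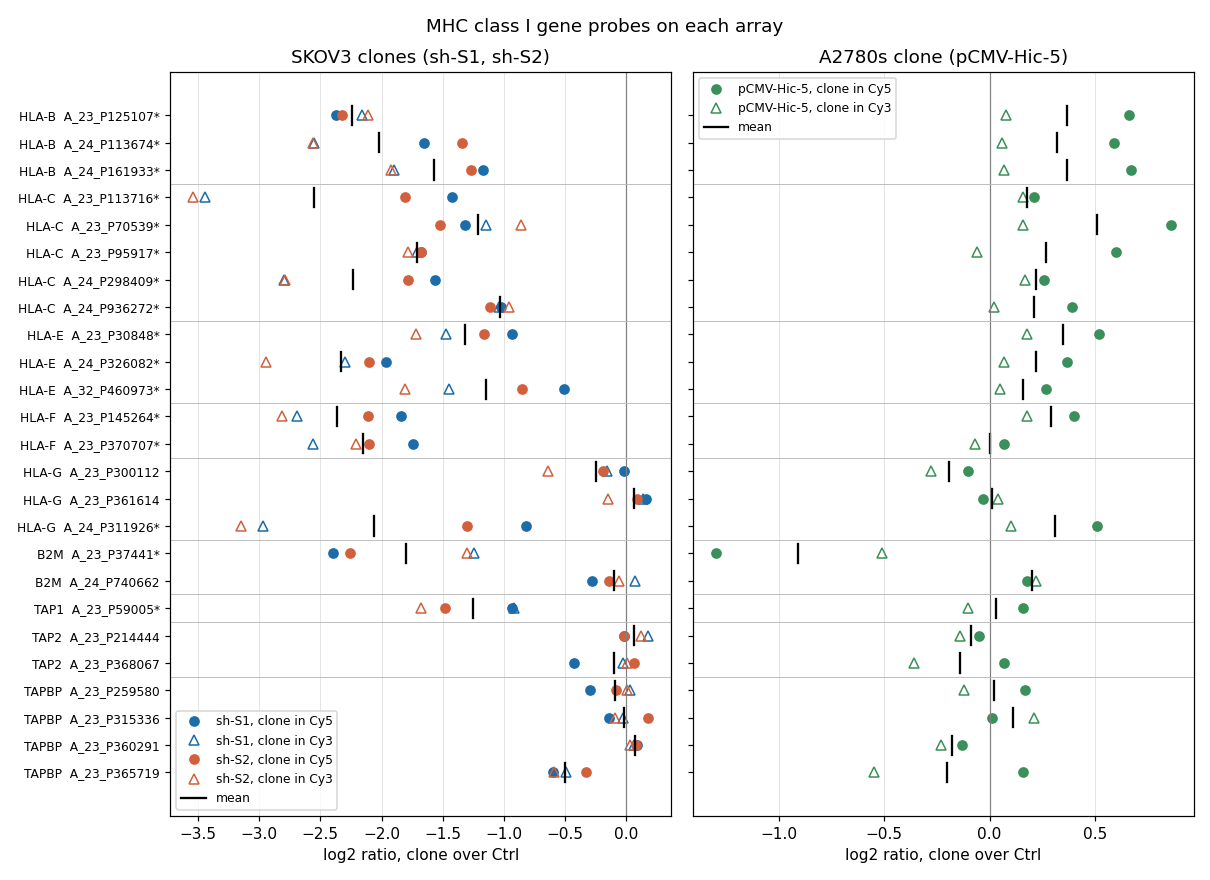
Log2 ratio of clone over Ctrl for each of the 25 probes (rows) on the 4 SKOV3 arrays (left) and the 2 A2780s arrays (right). Circles are arrays with the clone in Cy5, triangles arrays with the clone in Cy3, and black bars the means, over clones on the left and over arrays on the right. An asterisk marks the 16 probes called lower in SKOV3, all of which lie left of 0 on all 4 arrays, while B2M A_23_P37441 is the one probe with a mean below -0.6 in A2780s.

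HLA-B, a classical heavy chain, was lower at all 3 probes that carry its name, including A_24_P161933, whose position lies among the HLA-C probes. With sh-S1 the log2 ratio of A_23_P125107 was -2.37 in Cy5 and -2.16 in Cy3, and with sh-S2 it was -2.32 and -2.11. The arrays lay close together, and the mean was -2.24 ± 0.03 (SD, n = 2 clones; 95% interval -2.46 to -2.02; limma's adjusted p = 1.29e-05), a 4.72-fold lower level. A_24_P113674 gave -1.65 and -2.55 for sh-S1 and -1.34 and -2.56 for sh-S2, so its fall was deeper on the arrays with the clone in Cy3, with a mean of -2.02 ± 0.11. A_24_P161933, the probe placed beside HLA-C, had the smallest fall of the HLA-B probes, -1.57 ± 0.04.

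HLA-C, also a classical heavy chain, was lower at all 5 probes, but the size ranged from -1.03 to -2.55. A_23_P113716 gave ratios of -1.42 and -3.44 for sh-S1 and -1.81 and -3.54 for sh-S2, a mean of -2.55 ± 0.18 or 5.87-fold (limma's adjusted p = 1.23e-05). This was the lowest mean of any member probe, and it depended more on the dye than on the clone. A_24_P298409, mapped to chr6:31236633-31236692, had -2.23 with a like gap between the dyes, from -1.56 and -1.78 with the clones in Cy5 to -2.80 and -2.79 in Cy3. A_23_P95917 gave -1.71 ± 0.02, A_23_P70539 gave -1.21 ± 0.03 and A_24_P936272 gave -1.03. A_24_P936272, the one at -1.03, was the member probe nearest to the 2-fold limit (2.05-fold; limma's adjusted p = 0.000331), and it shares a run of 18 bases, and 29 of 30 in the best stretch, with the HLA-B probe A_23_P125107, whose mean was -2.24. With the processed signals of the scanner software this HLA-C probe had -1.95.

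The nonclassical heavy chains HLA-E and HLA-F fell at every probe. HLA-E, which presents leader peptides of other heavy chains, had its largest fall at A_24_P326082, with -1.96 and -2.30 for sh-S1 and -2.10 and -2.94 for sh-S2. The mean was -2.33 ± 0.28 (SD; adjusted p of 3.15e-05 by limma), with sh-S2 below sh-S1 in both dye orientations. This probe and the HLA-C probe A_23_P95917 were alike in 26 of 30 bases of their best-matching stretch. Whether HLA-C RNA reached it was not tested. The other HLA-E probes, A_23_P30848 and A_32_P460973, had -1.32 and -1.15, and sh-S2 was below sh-S1 there too, at -1.44 against -1.20 and at -1.33 against -0.98. For HLA-F, A_23_P145264 read -1.84 and -2.69 for sh-S1 and -2.11 and -2.81 for sh-S2, with a mean of -2.36 ± 0.14 or 5.15-fold. A_23_P370707, whose match extends over chr6:29693307-29693794, stood at -2.15 in both clones (limma's adjusted p = 1.46e-05).

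The 3 HLA-G probes differed. A_24_P311926 gave -0.82 and -2.97 for sh-S1 and -1.30 and -3.15 for sh-S2, a mean of -2.06 ± 0.23 (limma's adjusted p = 4.05e-05). A_23_P300112 (chr6:29798427-29798486) stood at -0.02, -0.16, -0.19 and -0.64, and its mean of -0.25 ± 0.23 did not pass the test (limma's adjusted p = 0.144). A_23_P361614 (chr6:29797494-29797553) was not well above background in all channels of any RNA and was not tested, with a mean of 0.06. The probe that fell is the one alike to the HLA-C probe printed above, and its dye gap of 2.00 was, with the 1.87 of that HLA-C probe, among the 2 largest of the tested members. Whether HLA-G itself was lower cannot be told from these values.

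B2M, the common light chain, fell at its bright probe. A_23_P37441, spotted 10 times on each array, gave -2.40 and -1.24 for sh-S1 and -2.26 and -1.30 for sh-S2. All arrays were low, and here the fall was deeper with the clone in Cy5, the reverse of most heavy chain probes. The mean was -1.80 ± 0.02 (SD), with a 95% interval of -2.02 to -1.58 and an adjusted p of 3.17e-05 by limma, which is 3.48-fold lower. The second B2M probe, A_24_P740662 at chr15:45007310-45007369, stood at -0.28, 0.07, -0.14 and -0.06 and did not pass the filter, since it was well above background in 2 of 4 Ctrl channels and 0 of 4 channels of the clones.

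The transporter subunits parted. TAP1 (A_23_P59005, chr6:32813210-32813269) gave -0.93 and -0.92 for sh-S1 and -1.48 and -1.68 for sh-S2, so both arrays of sh-S2 were below both arrays of sh-S1. Its mean was -1.25 ± 0.46 (SD, n = 2 clones; 95% interval -1.63 to -0.87; limma's adjusted p = 0.00142). The distance between the clones was 0.65, the widest of the tested member probes, and sh-S1 alone, at -0.93, stayed short of 2-fold. TAP2, its partner in the transporter, gave -0.02, 0.18, -0.02 and 0.12 at A_23_P214444, a mean of 0.06 with a 95% interval of -0.16 to 0.29 (limma's adjusted p = 0.677). That interval leaves out the size of the TAP1 change, although the difference between the genes was not tested. The second TAP2 probe, A_23_P368067, was not tested and had a mean of -0.10.

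Tapasin, the editor that holds the transporter to the heavy chain, changed little at its 4 probes. A_23_P365719 (chr6:33267718-33267777) gave -0.60 and -0.49 for sh-S1 and -0.33 and -0.59 for sh-S2. All 4 arrays were below 0 and its adjusted p by limma was 0.00739, but the mean of -0.50 ± 0.06 is 1.42-fold, short of 2-fold and of 1.5-fold. A_23_P315336 and A_23_P360291 had means of -0.02 and 0.07, with 95% intervals of -0.25 to 0.21 and -0.16 to 0.29. A_23_P259580 did not pass the filter.

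When the probes of a gene were averaged before the fit, the same 7 genes were lower and TAP2 and TAPBP were not called, where 3.83% of all 18922 genes were lower. HLA-F came lowest at -2.26 ± 0.07, then HLA-B at -1.94 ± 0.03, B2M at -1.80 ± 0.02, HLA-C at -1.75 ± 0.05, HLA-E at -1.60 ± 0.23, TAP1 at -1.25 ± 0.46 and HLA-G at -1.16 ± 0.23 (SD, n = 2 clones each). The 95% interval of each of these genes overlaps that of its neighbour in this order, so the order of neighbours is not resolved. The HLA-G mean joins probes that differ, as given above, and the HLA-B mean includes A_24_P161933, which is placed among the HLA-C probes.

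The dye orientation moved the values more than the clone did. Between the mean of the arrays with the clones in Cy5 and the mean with the clones in Cy3, the 21 tested member probes differed by 0.04 to 2.00 with a median of 0.47, against a median of 0.32 over all tested probes. Between sh-S1 and sh-S2 they differed by 0 to 0.65 with a median of 0.11, against 0.14 over all tested probes. The fall was deeper with the clones in Cy3 for 12 of the 16 called probes, and shallower for B2M A_23_P37441, HLA-B A_23_P125107 and HLA-C A_23_P70539 and A_24_P936272. Of the 16 called probes, 10 reached 2-fold on every one of the 4 arrays. No share over all probes called lower stands beside these counts, so nothing particular to the class I probes is read from them. With the clones in Cy5 alone, HLA-E A_32_P460973 was at -0.68 and no longer reached 2-fold, and the other 15 calls held in either orientation.

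**Figure D2:**
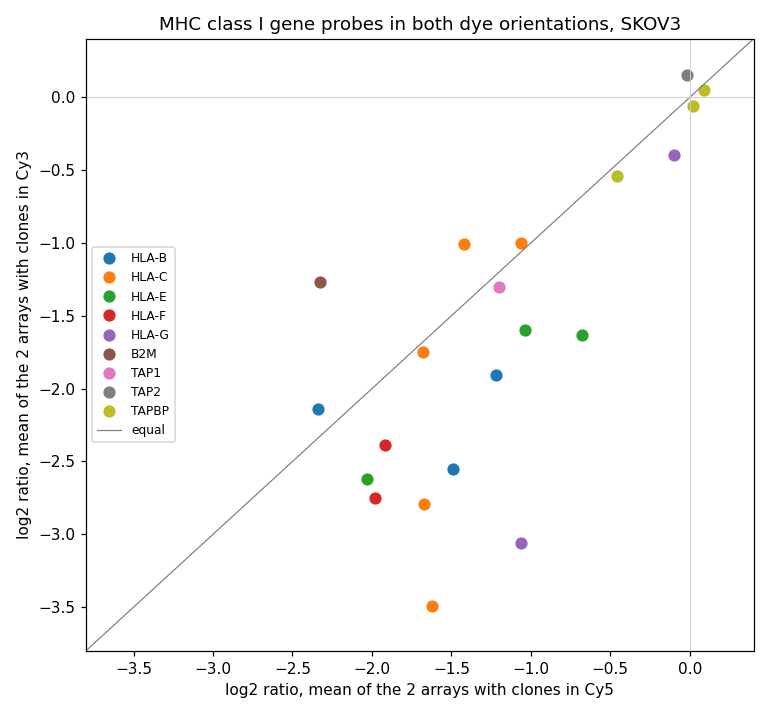
Mean log2 ratio of the 2 SKOV3 arrays with the clones in Cy5 (x axis) against the 2 arrays with the clones in Cy3 (y axis) for the 21 tested member probes, coloured by gene, with the line of equal values. Most heavy chain probes lie below the line, furthest for HLA-G A_24_P311926 (-1.06 and -3.06), while B2M A_23_P37441 (-2.33 and -1.27) lies above it.

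The levels in single channels place the RNAs in order. They are log2 intensities after normalization between channels and are compared for 1 probe at a time. In the SKOV3 Ctrl, HLA-B A_24_P113674 had 14.71 to 15.55 over 4 channels. It had 13 to 13.08 in sh-S1 and 12.75 to 13.37 in sh-S2, which overlap, and then 12.23 to 12.32 in A2780s pCMV-Hic-5 and 11.65 to 12.26 in the A2780s Ctrl, which overlap as well. The Ctrl of SKOV3 was highest with no overlap, and both shRNA clones lay between it and the A2780s RNAs. HLA-F A_23_P145264 had the same order, from 12.57 to 12.87 in the SKOV3 Ctrl, over 9.96 to 10.72 in sh-S1 and 10.06 to 10.59 in sh-S2, to 8.86 to 9.10 in the A2780s Ctrl. B2M A_23_P37441 had 14.05 to 14.63 in the SKOV3 Ctrl, 12.11 to 12.84 in sh-S1, 12.37 to 12.75 in sh-S2, 12.46 to 13.14 in the A2780s Ctrl and 11.84 to 11.95 in pCMV-Hic-5. For this light chain both shRNA clones overlapped the A2780s Ctrl. TAP1 had 12 to 12.07 in the SKOV3 Ctrl, 11.17 to 11.44 in the A2780s Ctrl, 11.10 to 11.14 in sh-S1 and 10.32 to 10.59 in sh-S2, so that sh-S2 was lowest of all RNAs.

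Over the 16 probes called lower, all SKOV3 Ctrl channels lay above all channels of sh-S1 and sh-S2 in 15, the exception being HLA-C A_24_P936272. Among all tested probes 7.88% had this separation, and among all probes called lower 82.8% did. In all 16 the SKOV3 Ctrl also lay above the A2780s Ctrl, as it did in 30.4% of all tested probes and in 96.6% of those called lower. Both shRNA clones lay wholly above the A2780s Ctrl in 11 of the 16, wholly below it in 1, TAP1, and overlapped it in 4. Of all probes called lower, 45.3% had both clones wholly above the A2780s Ctrl and 6.21% wholly below, and nothing particular to the class I probes is read from these counts. Over the 20 probes that passed the filter in both lines, the SKOV3 Ctrl was higher than the A2780s Ctrl by a median of 2.03 on the log2 scale, and the mean of sh-S1 and sh-S2 by a median of 0.61. With the processed signals of the scanner software these differences were 1.57 and 0.12. The lines are on different slides with 1 Ctrl RNA each, so the differences have no test. No median over all probes stands beside these differences, so nothing particular to the class I probes is read from them.

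**Figure D3:**
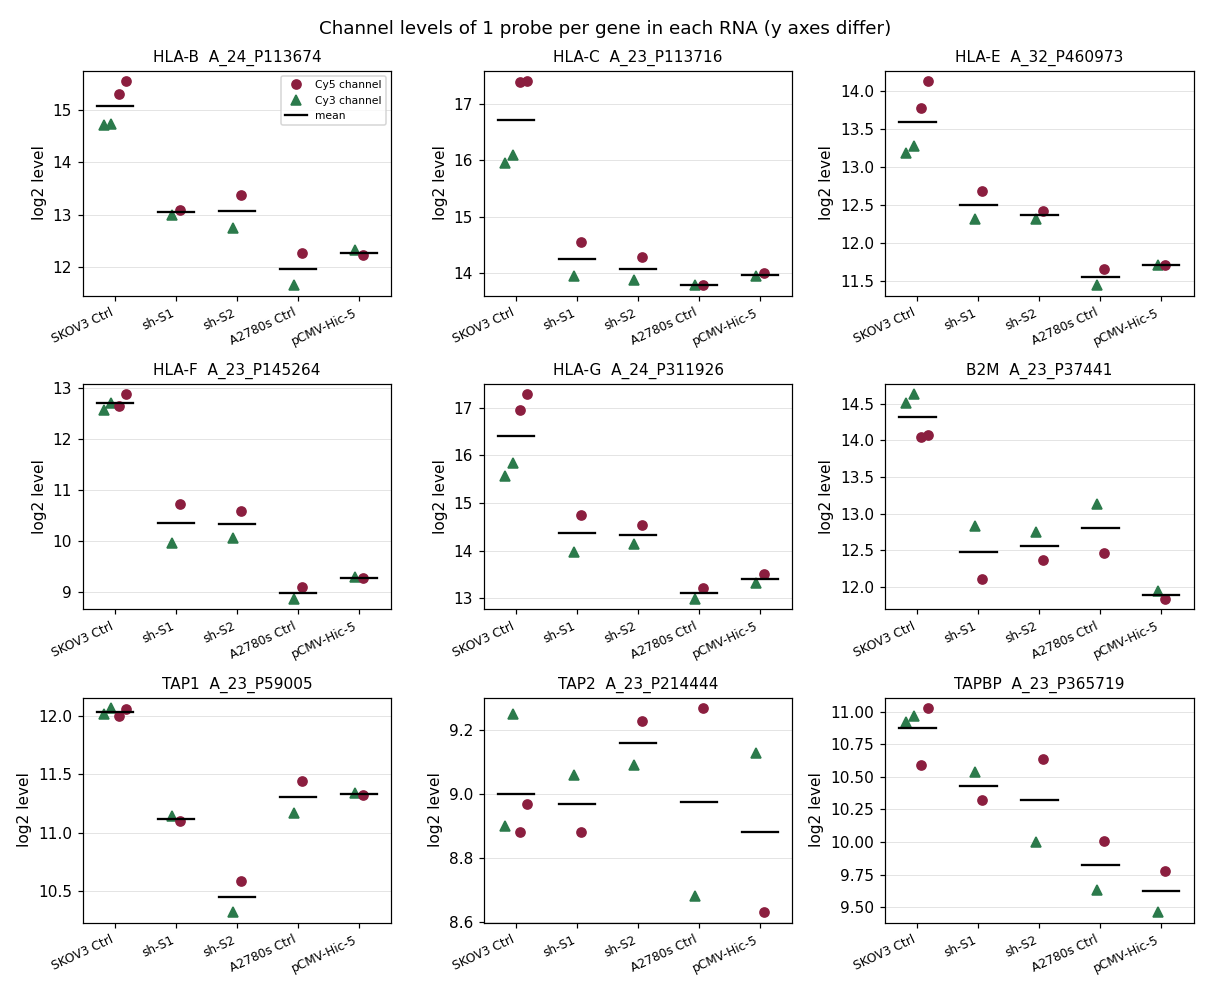
Log2 level in each channel (circles Cy5, triangles Cy3; bars are means) of the brightest tested probe of each member in the 5 RNAs. The SKOV3 Ctrl has 4 channels and the other RNAs have 2 each, and the y axes differ between panels. The SKOV3 Ctrl stands highest in the panels of the heavy chains, B2M and TAP1, and TAP2 lies between 8.63 and 9.27 in all RNAs.

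In A2780s, where the TGFB1I1 ratio was raised, the class I genes moved little. A probe was called there when its mean ratio reached 1.5-fold with the same direction on both arrays, since 1 replicate gives no test. Of 22 member probes above background, 1 was called lower, where 1.32% of all 30530 probes were, and 0 were called higher, where 3.26% were. The lower one was B2M A_23_P37441, at -1.30 with the clone in Cy5 and -0.51 in Cy3, a mean of -0.91 or 1.87-fold. Its direction was the same on both arrays, but in the Cy3 orientation alone it was short of 1.5-fold. The second B2M probe did not pass the filter and stood at 0.18 and 0.22.

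No heavy chain probe reached the limit in A2780s. Both arrays were above 0 in 13 of the 22 member probes and in 31.2% of all probes, and the median of the 22 was 0.20 against -0.01 over all probes. The values were larger with the clone in Cy5, where HLA-B A_23_P125107 had 0.66, A_24_P113674 had 0.59 and A_24_P161933 had 0.67, than in Cy3, where they had 0.08, 0.06 and 0.07. HLA-C A_23_P70539 had the highest mean, 0.51 or 1.42-fold, from 0.86 and 0.16. HLA-E ran from 0.16 to 0.35 over its probes and HLA-F from 0 to 0.29. TAP1 stood at 0.16 and -0.10, TAP2 at -0.05 and -0.14 for its brighter probe, and the 4 TAPBP probes had means from -0.20 to 0.11. Among the HLA-G probes, A_24_P311926 had 0.51 and 0.10, and the others were not above background in either RNA of A2780s.

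The rest of the pathway was read from lists of genes, each by its brightest tested probe. Among the inducible proteasome subunits and activators, 3 of 5 fell in SKOV3: the log2 ratio was -1.54 for PSMB8, -1.35 for PSMB9 and -1.30 for PSMB10, which are the 3 catalytic subunits of the immunoproteasome (limma's adjusted p = 6.21e-05, 0.000131 and 0.000119). The list's median was -1.30, against 0 over all tested probes, of which 4.16% were lower by the same rule. With the processed signals PSMB8 had -3.57, and PSMB9 with the clones in Cy5 alone and PSMB10 in Cy3 alone were short of 2-fold, at -0.84 and -0.70. PSME1 and PSME2, the activator subunits, had -0.93 and 0.91, opposite in sign and short of 2-fold. The other tested PSME1 probe had -0.06. Of the catalytic subunits of the constitutive proteasome, PSMB5 rose by 1.00 (limma's adjusted p = 0.000407), at the limit of 2-fold, while PSMB6 had 0.82 and PSMB7 had -0.91. PSMB5 missed 2-fold under 4 of the other settings, with values of 0.88 to 0.91.

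ERAP2, an aminopeptidase that trims peptides in the endoplasmic reticulum, fell to a log2 ratio of -1.96 ± 0.20 (adjusted p of 4e-05 by limma), and the list's other tested gene, LNPEP, had 0.28. Its second probe and both probes of ERAP1 did not pass the filter. None of the 4 loading chaperones passed the thresholds of limma in SKOV3, with CALR at 0.61, PDIA3 at 0.58, TAPBPL at -0.12 and CANX at -0.48. With 4 genes this count cannot be told from the shares over all tested probes. In A2780s, CALR, which folds glycoproteins and belongs to the loading complex, was higher by the 1.5-fold rule with 0.57 and 0.79.

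Of 20 tested regulators, 1 fell and 1 rose in SKOV3, which is near the 4.16% and 2.97% of all tested probes, and their median was -0.06. IFNGR1, the ligand-binding chain of the interferon gamma receptor, fell to a log2 ratio of -1.34 (limma's adjusted p = 0.000117) and had -0.95 with the clones in Cy3 alone. RFX5, a factor that binds promoters of MHC genes, rose by 1.01 (limma's adjusted p = 0.000731), but had 0.84 with median centring and 0.92 with the clones in Cy3 alone. NLRC5, the class I coactivator, had -0.08 ± 0.29 (limma's adjusted p = 0.68), with sh-S1 at -0.29 and sh-S2 at 0.12. IRF1, an interferon response factor, had -0.10 ± 0.07 (adjusted p of 0.502 by limma). In A2780s the regulator RFXAP was higher by the 1.5-fold rule, at 0.69 and 0.63.

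Molecules related to class I were read in the same way. Of 7 tested class I-like genes, FCGRT, the receptor that recycles IgG and pairs with B2M, rose by 1.07 ± 0.28 (limma's adjusted p = 0.000878) and 0 fell, with FCGRT at 0.91 under median centring and 0.95 with the clones in Cy3 alone, MICA at 0.06, HFE at 0.09 and MR1 at 0.19. With 7 genes, counts of 0 lower and 1 higher cannot be told from the shares over all tested probes. In A2780s, MICB, a stress ligand, was lower by the 1.5-fold rule, at -0.76 and -0.43. Of the 9 class II genes, 7 were tested in SKOV3 and 0 passed the thresholds of limma, with a median of 0.11. Here too a count of 0 among 7 genes cannot be told from the shares over all tested probes. HLA-DRA and CD74, the class II alpha chain and its chaperone, did not pass the filter on signal.

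**Figure D4:**
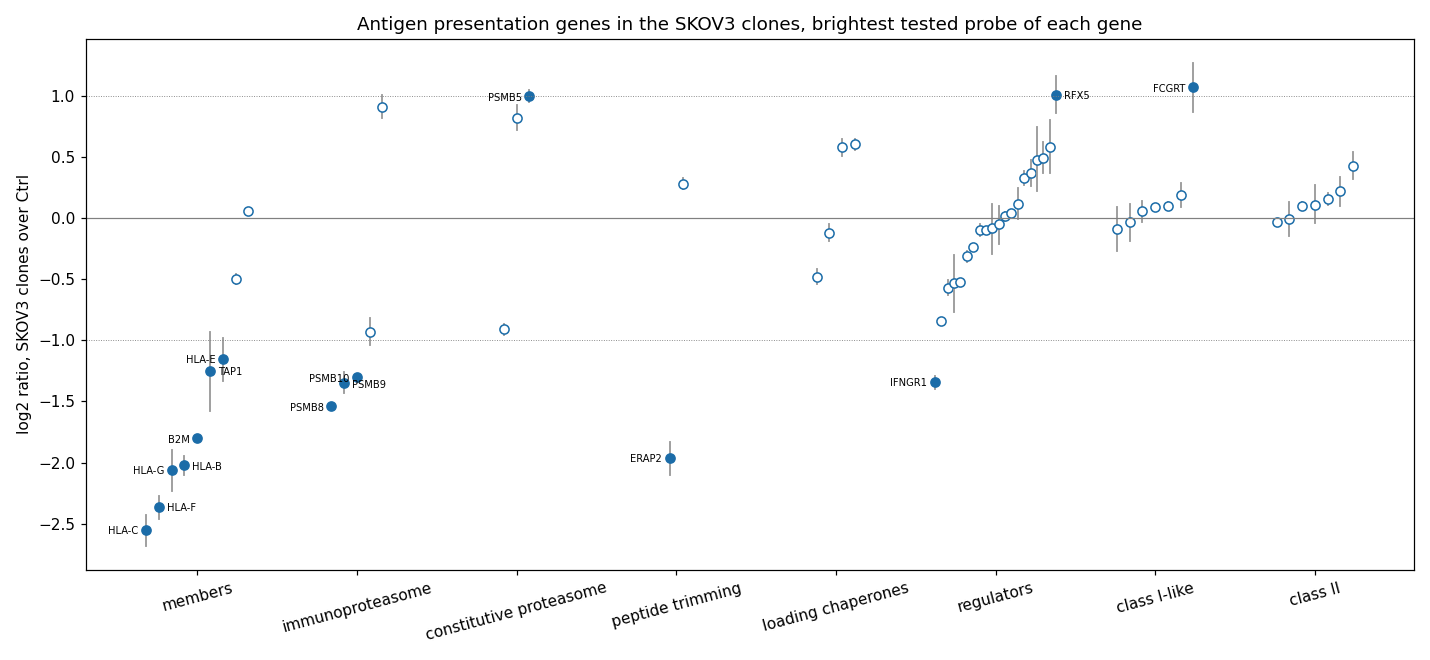
Mean log2 ratio of the SKOV3 clones over Ctrl for the brightest tested probe of each gene in 8 lists, the members, both proteasome lists, peptide trimming, loading chaperones, regulators, class I-like and class II genes; cell type markers are not plotted. Grey bars run from sh-S1 to sh-S2, filled points passed limma's thresholds and open points did not, and dotted lines mark 2-fold. The filled points below -1 in these lists are 7 members, PSMB8, PSMB9, PSMB10, ERAP2 and IFNGR1.

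The genes whose level was most like that of the class I probes were found by their Pearson correlation, over the 12 channel levels, with the mean profile of the 21 member probes that were above background in the SKOV3 Ctrl on all its arrays. PMEPA1 had the highest at 0.996, followed by CAPG and CAV1 at 0.995, and HSPA1A, which has close copies in the genome, had 0.994. The points share arrays and 5 RNAs, and the profile follows mainly the SKOV3 Ctrl against the rest, so that the correlations are a description only. Their own log2 ratios in the SKOV3 clones were -3.48, -1.90, -3.73 and -3.16.

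The promoters of the members were read for the letters of motifs known from MHC genes. RefSeq windows on GRCh38.p14 were at hand for 8 of the 9 members, in 11 entries. In the 250 bases before the start, on both strands, CCAAT was searched as the core of the NF-Y site, TGACG as a core of the CREB and ATF site, a pair of GAAA with 2 bases between as an interferon response element and GGGA before CC with 4 bases between as a kappa B form. Over all 35116 promoters these letters occurred in 32%, 21.2%, 3.02% and 22.6%. HLA-B and HLA-C held CCAAT 3 and 4 times, TGACG 1 time and the kappa B form at 2 places, which overlap in HLA-B. The searched GAAA pair had no match in them. Other spellings of an interferon response element were not searched, so its absence cannot be read from this. HLA-F held CCAAT at 2 places and the interferon response element at 1. One of the 3 HLA-G entries held CCAAT and the kappa B form, and the others held none of the motifs. B2M held all 4 motifs, and TAP1 held 3 of them in its upstream entry and none in the other. TAP2 and TAPBP, which did not pass the thresholds, held the interferon response element at 1 and 2 places and no CCAAT, and held TGACG and the kappa B form 1 time, respectively. The stretches of 120 bases with the most motif letters are shown for HLA-B, B2M and TAP1, which fell, and for TAPBP, with motif letters in capitals; overlapping motifs run together.
HLA-B promoter, chr6:31357237-31357356 (- strand): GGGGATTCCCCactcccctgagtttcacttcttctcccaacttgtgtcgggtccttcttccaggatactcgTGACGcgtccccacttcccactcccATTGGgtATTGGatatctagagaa
B2M promoter, chr15:44711353-44711472 (+ strand): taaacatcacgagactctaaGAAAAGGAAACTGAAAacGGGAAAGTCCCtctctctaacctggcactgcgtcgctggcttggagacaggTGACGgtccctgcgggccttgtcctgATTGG
TAP1 promoter, chr6:32853822-32853941 (- strand): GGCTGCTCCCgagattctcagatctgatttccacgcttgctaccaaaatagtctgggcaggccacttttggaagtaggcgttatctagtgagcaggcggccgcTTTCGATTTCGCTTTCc
TAPBP promoter, chr6:33314079-33314198 (- strand): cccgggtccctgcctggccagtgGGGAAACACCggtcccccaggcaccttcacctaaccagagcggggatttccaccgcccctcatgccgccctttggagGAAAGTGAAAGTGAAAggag
A match describes the letters only.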

How the data were processed

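RNA of 5 clones was measured on 6 2-colour arrays, with a dye swap for each modified clone. The authors deposited spot intensities from Agilent Feature Extraction (8.5.1.1 per the labels, 10.7.3.1 per the file headers), with local background and without normalization, and processed intensities. The log10 ratio of each spot that the authors deposited is Cy5 over Cy3 on every array. Directions were taken from the dye of each channel in the labels, whose free text writes the ratio as control minus clone for the first array of each clone. Mean intensities were background-corrected with limma 3.58.1 (normexp, offset 50; spots with a background flag or a local background over 1000 left out of its fit), normalized within each array by loess, averaged over spots of a probe and turned to log2 ratios of clone over Ctrl. Control spots and outlier spots were left out.

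In SKOV3 both arrays of each clone were averaged, and the 2 clones were tested against 0 with limma's lmFit and eBayes, with Benjamini-Hochberg adjustment over 24955 probes; the spread of the single Ctrl RNA is not in this test. Channel levels were normalized with Aquantile. The variance of each probe was moderated by that of all tested probes, with a prior of 5.55 degrees of freedom. Intervals are 95% intervals of the fit with this variance, and SDs are over clones without it. The number of arrays and the dim Cy5 channel limit the precision. The scripts' calls were checked on simulated data with known changes. Groups follow the sample labels.

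The members and gene lists were chosen with earlier results of these data known. Every member probe is named, as are TGFB1I1, ERBB2, each list gene called in a comparison and the genes most like the members in their level, of which 1 is not reported here. Other list genes that are named, the motifs, the comparison of probe sequences and the choice of spots for the normexp fit were chosen after values were seen. Alternatives were other background corrections and scalings, no filter on dim probes, each dye orientation alone, each clone alone, other thresholds and means over probes.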

Additional observations from a re-analysis of the deposited data

How the results depend on the processing

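The count of member probes lower in SKOV3 stayed between 15 and 16 under every alternative fitted with both clones, and the count of higher ones stayed at 0; with 1 clone alone there is no test and no count. The median log2 ratio of the 21 tested member probes was -1.57 as reported and moved to -1.78 with the processed signals and with the deposited log10 ratios, to -1.77 with median centring, to -1.22 with the clones in Cy5 only and to -1.63 with the clones in Cy3 only. Leaving out 1 clone gave -1.60 to -1.54, and with sh-S1 alone TAP1 (-0.93) and HLA-E A_32_P460973 (-0.98) were short of 2-fold. In A2780s, 5 member probes were higher with the clone in Cy5 only. No share over all probes under that setting stands beside this count, so nothing is read from it. The call of B2M as lower was lost, leaving 0, with the clone in Cy3 only, at 1.5-fold on each array and at 2-fold. The level of the SKOV3 Ctrl over the A2780s Ctrl moved from a median of 2.03 to 1.89 with quantile normalization and to 1.57 with processed signals, and that of sh-S1 and sh-S2 over the A2780s Ctrl moved from 0.61 to 0.12 with processed signals. The cause of these shifts was not tested. No direction of a called member probe reversed. Single-probe calls beyond the members that were lost were PSMB9 (-0.84) with the clones in Cy5 only, PSMB10 (-0.70) and IFNGR1 (-0.95) with the clones in Cy3 only, PSMB5 (0.88 to 0.91) under 4 settings, and RFX5 (0.84 and 0.92) and FCGRT (0.91 and 0.95) with median centring and with the clones in Cy3 only. Each log2 ratio pairs a clone with its Ctrl on the same array. No further pairing was possible because the replicate numbers are an accession order and each clone is 1 replicate against 1 Ctrl RNA.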
